A study of Rattus norvegicus with 44 samples.

Results

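The genes described here encode the proteins of the cytosolic ribosome. They were taken as the rows whose symbol begins with Rpl or Rps and a digit, without the Rps6k kinases, together with Rplp0, Rplp2 and Rpsa. In each of the tables, 80 rows carried such a symbol, of 20003 rows in CA1 and 20050 in the dentate gyrus (DG), and they were the same 80 symbols. Of these, 76 reached a value of 10 in at least 6 libraries in each region and are the members tested, of 14915 genes tested in CA1 and 14904 in DG. Rpl13, Rpl38, Rpl39l and Rpl3l did not reach it. The highest value of Rpl13 in any CA1 library was 4.62, and Rpl38, another gene of a core ribosomal protein, was listed at 0 in all aged vehicle and young vehicle libraries of both regions. Among the 80 symbols, 66 name core ribosomal proteins, 42 of the large and 24 of the small subunit, and 14 name like-numbered copies (such as Rpl22l1 and Rps27l) or, for Rps19bp1, a binding partner.

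Libraries of polyadenylated RNA numbered 44, a CA1 and a DG library for every one of 22 male rats, both taken from 1 hippocampus. The young LPS group held 8 rats aged 5 to 7 months, given lipopolysaccharide (LPS, a component of the outer membrane of gram-negative bacteria that provokes inflammation) at 1 mg per kg into the peritoneum weekly for 7 weeks. The aged vehicle group held 6 rats aged 14 to 16 months, and the young vehicle group held 8 rats aged 5 to 7 months. Both vehicle groups received saline on the same schedule, and dissection followed the final injection by 48 hours. The strain is not given in the sources used here. Values are the authors' normalised read counts, and the 2 regions were normalised separately, so that levels are compared only within a region.

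A ribosome joins a small subunit, which reads the mRNA, to a large subunit, which forms the peptide bonds. Each core protein is needed in about the same amount as the others. In mammals the mRNAs of these proteins typically begin with a cytosine and a run of pyrimidines, the 5′ terminal oligopyrimidine (TOP) start, through which their translation, and not mainly their mRNA level, follows the activity of the mTORC1 kinase. In neurons part of these mRNAs lies in dendrites and axons.

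The starts of 7 members to which the results below return are shown, each from 30 bases before the annotated start and 30 bases from it on. Capitals mark the pyrimidine run from the annotated start on, where it held at least 5 pyrimidines and its first base was a C. Pyrimidines before the annotated start are not in capitals. They are RefSeq sequences of the rat build GRCr8, written 5′ to 3′ on the gene's strand.
Rplp0: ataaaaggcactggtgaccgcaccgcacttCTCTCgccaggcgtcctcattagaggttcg
Rps18: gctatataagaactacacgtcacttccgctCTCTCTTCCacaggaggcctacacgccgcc
Rpl14: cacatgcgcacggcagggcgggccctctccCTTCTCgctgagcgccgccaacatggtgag
Rpl22: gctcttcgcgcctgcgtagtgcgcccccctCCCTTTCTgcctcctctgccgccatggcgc
Rpl22l1: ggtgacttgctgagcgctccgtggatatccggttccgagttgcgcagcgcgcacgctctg
Rplp2: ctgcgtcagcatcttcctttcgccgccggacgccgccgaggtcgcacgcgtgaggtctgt
Rpl6: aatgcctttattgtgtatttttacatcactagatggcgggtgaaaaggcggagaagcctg
They lie, in the same order, on chromosome 12 at 46718361 to 46718420 (minus strand), chromosome 20 at 4933715 to 4933774 (plus strand), chromosome 8 at 129163590 to 129163649 (plus strand), chromosome 5 at 168117931 to 168117990 (plus strand), chromosome 2 at 113683166 to 113683225 (plus strand), chromosome 1 at 205975891 to 205975950 (plus strand) and chromosome 12 at 41011661 to 41011720 (minus strand). Counted from the annotated start, the runs of Rplp0, Rps18, Rpl14 and Rpl22 were 5, 9, 6 and 8 bases long. In each of them pyrimidines also lay directly before the annotated start, so that the whole stretch is longer. No such run was in the windows of Rpl22l1, Rplp2 and Rpl6 within 10 bases of the annotated start. This does not show that their mRNAs lack a TOP start. In the Rpl6 sequence an ATG follows almost directly on the annotated start, and the Rplp2 sequence holds a pyrimidine run further upstream.

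Of the 80 symbols, 63 had an entry in the RefSeq promoter table. A TOP start at the annotated first base was present in 19 of these 63 (30.2%), against 2.63% of all 33469 promoters. All 19 were core members, 35.2% of the 54 core members with an entry, and none of the 9 copies or like-named rows with an entry had one. A second search let the run open up to 10 bases on either side of the annotated start, but only where the base before it was not a pyrimidine. It found a run in 26 of 63 members (41.3%), against 21.2% of all promoters, and in 4 of the 9 copies. Because of this added condition, some members of the first search, such as Rpl10 and Rps14, were not found by the second. The second share is therefore not a widening of the first. The motif CTTTCC, searched on both strands in the same 60-base windows and able to overlap a TOP run, was in 17 of 63, against 5.34% of all promoters. These are matches of letters at annotated starts, and the starts used in hippocampus were not measured.

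Most of the ribosomal protein genes varied together from library to library. The summed level of the set was 0.538% to 1.52% of all normalised read counts in CA1 and 0.695% to 1.58% in DG. The share in CA1 was 1.00 ± 0.122% in young LPS rats (SD, n = 8), 0.842 ± 0.158% in aged vehicle rats (SD, n = 6) and 1.04 ± 0.220% in young vehicle rats (SD, n = 8). In DG it was 0.924 ± 0.168%, 0.925 ± 0.0788% and 1.02 ± 0.257% in the same order of groups. The groups overlapped in both regions. After the group means were removed, the median correlation over pairs of members across the 22 libraries was 0.50 in CA1 and 0.54 in DG, and 57 members in CA1 and 59 in DG had a correlation of at least 0.5 with the mean of the others. These correlations are descriptions over libraries that share their depth and dissection. They were computed neither for all tested genes nor without the libraries that stood apart, described next. Varying together is therefore not shown to be particular to this set. Rps23, a small-subunit protein, was close to that mean in both regions, with correlations of 0.956 in CA1 and 0.938 in DG, whereas Rps18l1 ran against it, with -0.389 and -0.581.

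Some libraries stood apart. In CA1 the library of aged vehicle rat 2532 held the lowest share, 0.538%, below the next aged library at 0.801%, and its members lay on average 1.04 log2 units under their mean over all libraries. It was also the shallowest CA1 library, with 12292357 reads. The young vehicle libraries of rats 2523 and 2572 held 1.52% and 1.203% in CA1, and those of rats 2526 and 2572 held 1.58% and 1.24% in DG. In the other region of the same rats the shares were 0.950% in DG of rat 2532, 0.933% in DG of rat 2523 and 0.890% in CA1 of rat 2526, within the range of the remaining libraries. Summed markers of blood cells were also high in some of these: 10520 in CA1 of rat 2523 and 16980 in DG of rat 2526, where the young vehicle medians were 2415 in CA1 and 1936 in DG. In CA1 the highest blood marker sum, 12170, was in young LPS rat 2404, whose share was 1.15%, and in rat 2532 it was 4055. None of the 4 measured blood markers was at 0 in every library of a region. Mitochondrially encoded genes summed to 2912000 in CA1 and 2232000 in DG of rat 2572, the highest sum of each region, and to 1982000 in CA1 of rat 2532, the next highest there. The fewest CA1 genes with a value above 0 were in these same libraries, 16280 in rat 2572 and 16861 in rat 2532. Summed markers of meningeal fibroblasts were 1510 and 1380 in DG of rats 2572 and 2526 and 1219 in DG of rat 2532, where no other DG library exceeded 436.5. In CA1 the highest meningeal sums were 2720 in rat 2526 and 1895 in rat 2532. Summed markers of choroid plexus were highest in CA1 of rat 2526, at 12590, where the next sum was 2523 in rat 2404. In DG they were highest in rat 2532, at 4111, where the next sum was 1496 in rat 2527. The part of blood cells, mitochondrial RNA or the number of genes with a value in these shares was not tested. That of choroid plexus and meningeal cells was examined only as a covariate. In bulk tissue, fewer cells of a type and less RNA per cell cannot be told apart.

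**Figure D1:**
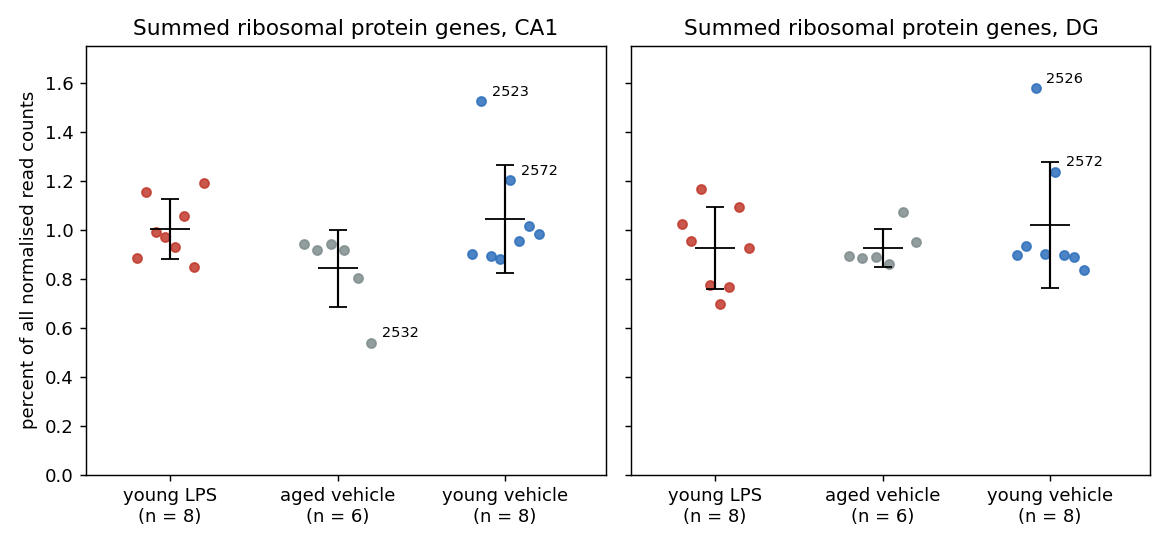
Summed normalised read counts of the ribosomal protein genes as a percent of all normalised read counts (y axis) in each library, by group, for CA1 (left) and DG (right). Points are libraries, bars are means with SDs. The CA1 library of aged rat 2532 lies lowest at 0.538%, and young vehicle rats 2523 in CA1 and 2526 in DG lie highest at 1.52% and 1.58%.

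The first comparison asked what repeated LPS injection did in young rats. In DG the single member past the threshold was Rpl6, a protein of the large subunit, and it fell. Its normalised read count in DG ran from 1133 to 1554 with a median of 1344 in young LPS rats, and from 1856 to 3203 with a median of 2064 in young vehicle rats. Every LPS library lay below every young vehicle library, and Rpl6 was the only member of the set whose groups separated in this comparison. The share of all tested genes that separated in this way is not given here, so that how rare it is cannot be told. In aged vehicle rats Rpl6 ran from 1445 to 2129 with a median of 1848 in DG, between the other groups and overlapping both. The log2 change of LPS against young vehicle was -0.69 (SE 0.11, adjusted p = 0.00595, limma with Benjamini-Hochberg adjustment over all tested genes, 8 of 8 LPS libraries below the lowest vehicle library). Of all genes tested in DG in this comparison, 0.0134% were called. That is 2 genes, of which Rpl6 is 1.

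The call of Rpl6 in DG held without the vehicle libraries that stood apart. Without rats 2526 and 2572 the log2 change in DG was -0.58 (adjusted p = 0.0241), and with the first digits of the rats' numbers as a covariate it was -0.72 (adjusted p = 0.00783). Among rats with numbers beginning with 25 alone, 4 per group, the change was -0.90 (adjusted p = 0.403, limma). That their LPS and vehicle libraries did not overlap follows from the separation of the full groups and adds nothing to it. Rpl6 was low in LPS libraries with high and with low shares of ribosomal protein counts. The DG libraries of LPS rats 2408 and 2573 had high shares, 1.165% and 1.09%, and their Rpl6 values were 1294 and 1133, whereas rat 2543 had the lowest share, 0.695%, with 1408. Measured relative to the mean of the other members of the same library, Rpl6 in DG ran from -0.958 to 0.159 log2 units in LPS rats and from -0.009 to 0.520 in young vehicle rats, ranges that overlap. RefSeq names 16 pseudogene copies of Rpl6 in the rat, and how the authors' counting treated reads shared with them is not given in the sources used here.

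**Figure D2:**
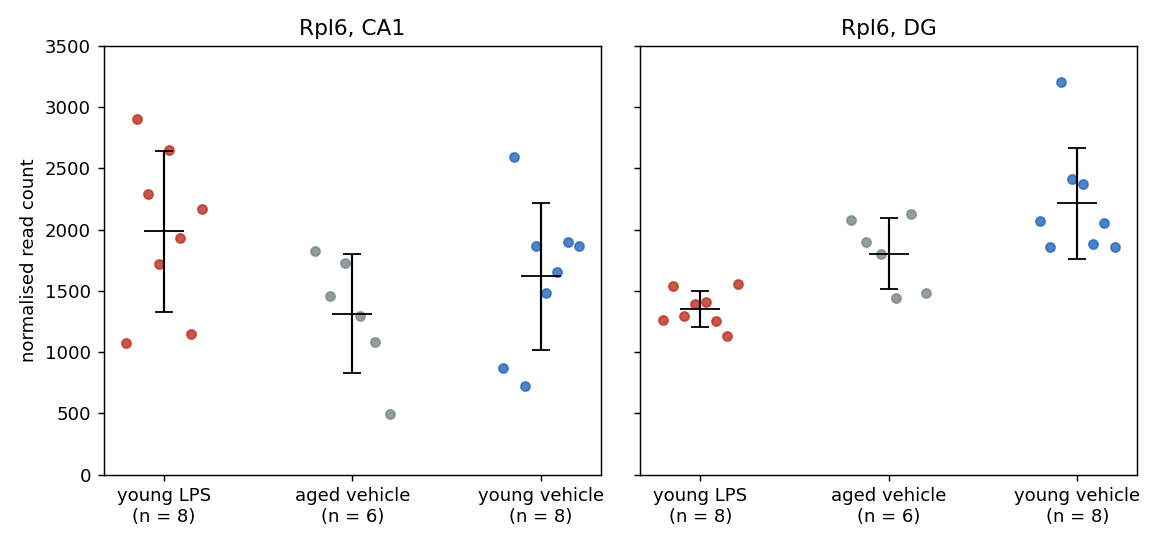
Normalised read count of Rpl6 (y axis) in each library, by group, in CA1 (left) and DG (right). Points are libraries, bars are means with SDs. In DG the LPS libraries lie between 1133 and 1554, below all young vehicle libraries, which start at 1856, and in CA1 the groups overlap.

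In CA1 Rpl6 gave no such difference. It ran from 1072 to 2904 with a median of 2050 in young LPS rats, up to 1827 with a median of 1376 in aged vehicle rats, lowest in rat 2532, and from 721.5 to 2590 with a median of 1762 in young vehicle rats. The groups overlapped widely, and the log2 change of LPS against young vehicle in CA1 was 0.32 (SE 0.27, adjusted p = 0.690, limma). The difference between the regions in this change, CA1 minus DG within each rat, was 1.01 (SE 0.30, adjusted p = 0.351, limma), so that the LPS effect on Rpl6 was not shown to differ between CA1 and DG.

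Beyond Rpl6, no DG member was called under LPS, and the members were mostly on the low side. Of the 76 members, 55 had a negative and 21 a positive log2 change, with a median of -0.14, where all tested genes had a median of -0.004. At an unadjusted p under 0.05, 14 members were lower, all core proteins, 9 of the large and 5 of the small subunit (18.4%, against 3.68% of all tested genes), and 1 was higher (1.32%, against 3.84%). The count of 14 moved with single libraries. It was 7 without vehicle rat 2526 (9.21%, against 3.13% of all tested genes in the same fit), 9 without vehicle rat 2572 (11.8%, against 3.7%) and 9 without LPS rat 2543 (11.8%, against 3.21%). Without rats 2526 and 2572 it was 4 lower (5.26%, against 4.64%) and 8 higher (10.5%, against 4.5%), with a median log2 change of 0.02. Among rats with numbers beginning with 25, which include both, it was 31 lower (40.8%, against 2.98%).

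The member after Rpl6 in that order was Rpl14, a large-subunit protein. It ran from 1015 to 1674 with a median of 1406 in LPS rats and from 1384 to 2504 with a median of 1866 in young vehicle rats of DG, and the groups overlapped (log2 change -0.42, SE 0.11, adjusted p = 0.515, limma). Rps10, of the small subunit, ran from 839.5 to 1620 in LPS rats and from 1341 to 3558 in young vehicle rats (-0.58, SE 0.17, adjusted p = 0.515). Rps16, also of the small subunit, gave -0.44 (SE 0.17, adjusted p = 0.561). The most negative changes after Rpl6 included Rps21 at -0.64 (SE 0.47), whose SE was large. At the high end, Rpl35al1, a gene similar to Rpl35a, had 1.85 (SE 0.77, adjusted p = 0.598) Rps15al4 0.65, and the core protein Rps24 0.45. Rpl35al1 in DG ran from 0.931 to 60.0 with a median of 11.8 in LPS rats and from 0 to 16.3 with a median of 2.59 in young vehicle rats, so that the groups overlapped at low counts.

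In CA1 no member passed the threshold under LPS with limma, edgeR or DESeq2, and 0.0% of all tested genes did with limma. At an unadjusted p under 0.05, 6 members were lower (7.89%, against 3.27% of all tested genes) and 1 was higher (1.32%, against 3.59%). There were 33 positive and 43 negative changes, with a median of -0.07 where all tested genes had 0.01. Of the 6 lower ones, 3 were not core members: Rpl36al, Rpl22l1 and Rps27l. Rpl22l1, a paralog of Rpl22, ran from 102.4 to 424.1 with a median of 282.0 in LPS rats and from 275.8 to 611.9 with a median of 330.9 in young vehicle rats (log2 change -0.51, SE 0.24, adjusted p = 0.654, limma). Rps27l, a paralog of Rps27 known as a p53 target in human cells, ran from 35.4 to 103.3 in LPS rats and from 51.9 to 129.5 in young vehicle rats (-0.49, SE 0.22, adjusted p = 0.654). Rpl36al, a paralog of Rpl36a, gave -0.74 (SE 0.26).

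Rpl35al1 was low too in CA1, with a log2 change of -1.02 (SE 0.91). The highest changes were those of Rpl7a (0.45), Rps2 (0.43, SE 0.19) and Rpl6 (0.32). Without rats 2523, 2572 and 2532 the counts in CA1 at an unadjusted p under 0.05 were 4 lower (5.26%, against 14.7% of all tested genes in the same fit) and 18 higher (23.7%, against 14.5%), with a median change of 0.14, so that the sign of the median changed. With 1 library left out at a time, 3 to 11 members were lower, 3 without vehicle rats 2410 or 2572 or LPS rat 2543 and 11 without aged rat 2532, which enters through the shared estimate of spread. In that last fit 14.5% of the members and 6.74% of all tested genes were lower.

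**Figure D3:**
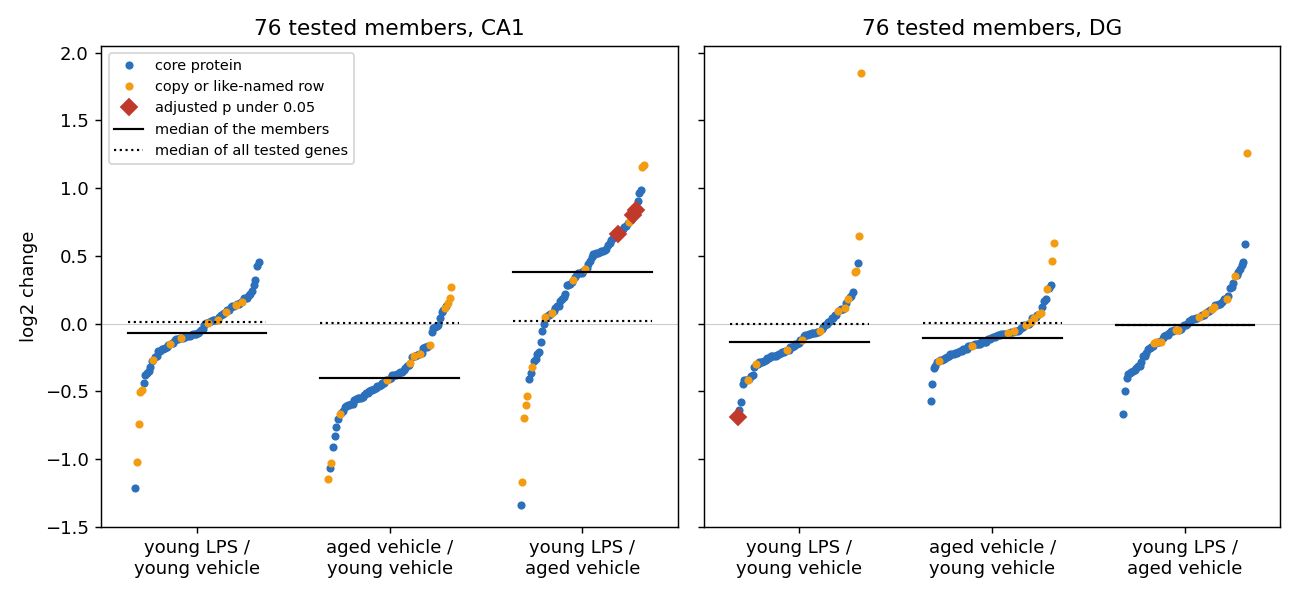
Log2 change (y axis) of each of the 76 tested ribosomal protein genes in the 3 comparisons of each region, ordered by size within a comparison. Blue points are core proteins, orange points copies or like-named rows, red diamonds members with an adjusted p under 0.05, full lines the median of the members and dotted lines the median of all tested genes. In CA1 the median of the aged against young vehicle comparison lies at -0.41 and that of LPS against aged at 0.38. In DG all 3 medians lie between -0.14 and -0.01.

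The second comparison, aged vehicle against young vehicle, asked about age. In CA1 68 of 76 members had a negative change and 8 a positive one, with a median of -0.41, where all tested genes had a median of 0.00. No member passed the threshold with limma, edgeR or DESeq2, while 0.0134% of all tested genes did with limma. At an unadjusted p under 0.05, 29 members were lower (38.2%, against 5.8% of all tested genes) and 0 were higher (against 6.82%). Of the 29, 18 were core proteins of the large and 8 of the small subunit. This count rested on single libraries. It was 5 without aged rat 2532 (6.58%, against 2.9% of all tested genes in the same fit), 11 without young vehicle rat 2523 (14.5%, against 3.65%) and 13 without rat 2572 (17.1%, against 4.53%). It was 2 without rats 2523, 2572 and 2532 (2.63%, against 2.39%), a share near the background. The median change was -0.22 without rat 2532, -0.32 without rat 2523 and -0.05 without all 3.

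The lowest adjusted p of these members was 0.393, shared by all 29. Rps18, of the small subunit, had the smallest unadjusted p in CA1. It ran from 1136 to 4615 with a median of 3574 in aged vehicle rats and from 3899 to 8575 with a median of 4993 in young vehicle rats. Only the aged libraries of rats 2412 and 2415, at 4615 and 3944, reached into the young range (log2 change -0.83, SE 0.24, adjusted p = 0.393, limma). Rpl22, a large-subunit protein known for its role in lymphocyte development in mice, gave -0.70 (SE 0.21), and Rps24, of the small subunit, -1.07 (SE 0.40). The lowest change was that of Rpl10l, a copy of Rpl10, at -1.15 (SE 0.39): it ran from 2.92 to 16.9 in aged vehicle rats and from 14.5 to 52.0 in young vehicle rats. Rps4y2, a like-named copy of Rps4x, gave -1.03. At the other end, Rps15al4 had 0.27, Rpl22l1 0.19 and Rpl35al1 0.15. Rps16 and Rps27 in rat 2532 stood at 742.4 and 328.2, where the next aged libraries were at 3141 and 2592.

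In DG age left the members near the young vehicle level. No member passed the threshold with limma, edgeR or DESeq2, where 0.0134% of all tested genes did with limma. Of the members, 61 had a negative and 15 a positive change, with a median of -0.10 against 0.01 for all tested genes. Without young vehicle rats 2526 and 2572 the split was 24 negative and 52 positive, with a median of 0.08. At an unadjusted p under 0.05, 2 members were lower (2.63%, against 1.73% of all tested genes) and 0 higher (against 1.26%). They were Rpl6 (log2 change -0.29, SE 0.11, adjusted p = 1.0, limma) and Rpl10a (-0.23, SE 0.10, adjusted p = 1.0), both of the large subunit. Low values were those of Rpl12 (-0.45) and Rps14 (-0.33), and the highest those of Rpl35al1 (0.59), Rps15al4 (0.46) and Rps12 (0.29).

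The third comparison set young LPS rats against aged vehicle rats. In CA1 3 of 76 members passed the threshold and rose: Rpl22, Rps18 and Rplp0. This was 3.95% of the members, where 8.73% of all tested genes were called in either direction, a lower share than the background. Rpl22 ran from 720.5 to 1123 with a median of 900.7 in LPS rats and from 210.0 to 771.9 with a median of 581.0 in aged vehicle rats (log2 change 0.80, SE 0.21, adjusted p = 0.049, limma). Rps18 ran from 3638 to 8090 with a median of 5420 in LPS rats and from 1136 to 4615 with a median of 3574 in aged vehicle rats (0.84, SE 0.24, adjusted p = 0.049). Rplp0, the stalk protein that carries the P1 and P2 proteins, ran from 5844 to 13370 with a median of 8008 in LPS rats and from 3487 to 6364 with a median of 5736 in aged vehicle rats (0.66, SE 0.21, adjusted p = 0.0492). All 3 overlapped between the groups, and all 3 are among the members with a TOP run at the annotated start shown above. Such a run was in 35.2% of the 54 core members with an entry, and a link between it and these calls was not tested.

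These calls lay close to the threshold: with 1 library left out at a time, no member was called in 15 of 22 fits, and up to 22 members were called in the others. Without aged rat 2532, the library that moved the values most, the log2 changes were 0.55 for Rpl22, 0.56 for Rps18 and 0.54 for Rplp0, with adjusted p-values of 0.119, 0.122 and 0.133 in that order, and no gene among all those tested was called (limma). In CA1, 31 members were higher at an unadjusted p under 0.05 (40.8%, against 17.3% of all tested genes) and 4 were lower (5.26%, against 18.5%). Without rat 2532 these counts were 17 (22.4%, against 12% of all tested genes in the same fit) and 2 (2.63%, against 12.7%), and the median change of 0.38 became 0.16, where all tested genes had 0.02. The lower members included Rpl22l1 (-0.70, SE 0.26), Rps27l (-0.60, SE 0.24) and Rpl21 (-0.37, SE 0.15). The highest changes were those of Rps4y2 (1.17), Rpl10l (1.16) and Rpl36 (0.99), none past the threshold. Rpl22 and Rpl22l1 stood on opposite sides in CA1, as did Rps27 (0.61, SE 0.35) and Rps27l. Rpl22l1 ran from 102.4 to 424.1 in LPS rats and from 267.6 to 781.8 in aged vehicle rats, with adjusted p = 0.0649 (limma). The value of 781.8 was that of rat 2532, where the next aged library held 416.6. For Rps27 rat 2532 held 328.2, where the next aged library held 2592. These opposite signs therefore lean in part on that library. This comparison and that of age share the aged vehicle rats, so that the opposite signs of their medians are not independent.

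**Figure D4:**
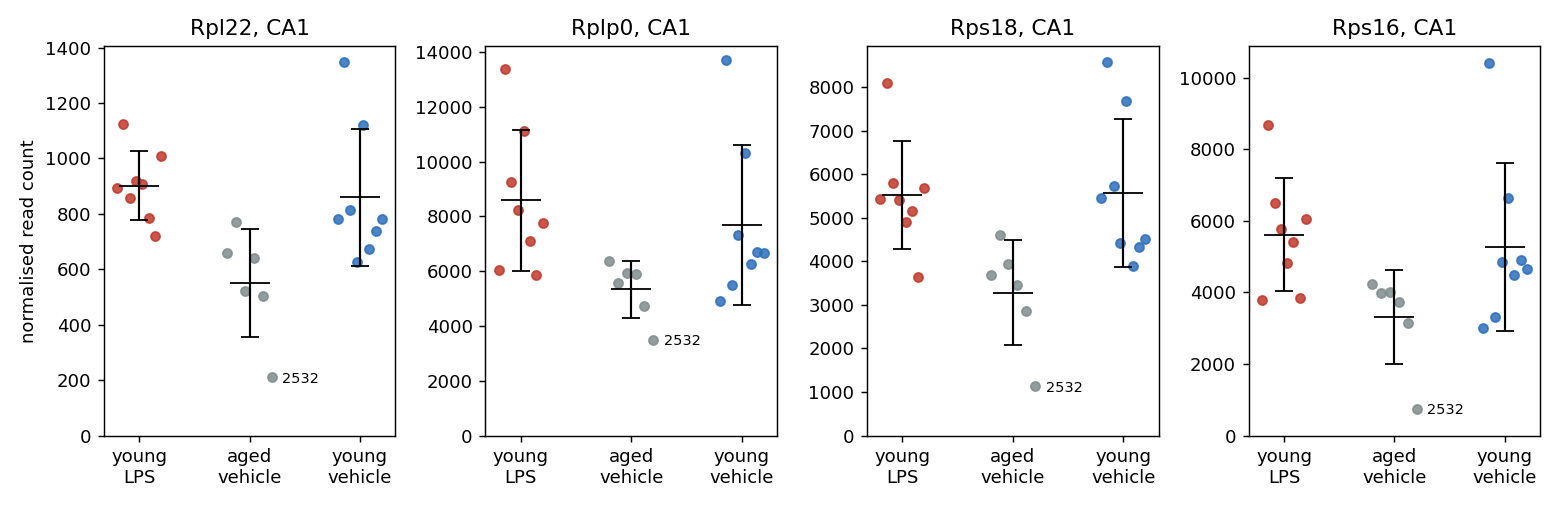
Normalised read counts (y axes, each from 0) of Rpl22, Rplp0, Rps18 and Rps16 in each CA1 library, by group. Points are libraries, bars are means with SDs, and the library of aged rat 2532 is named. It is the lowest library for all 4 genes, at 742.4 for Rps16, and the LPS and aged vehicle groups overlap for each.

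In DG the same comparison called no member with limma, edgeR or DESeq2, and 0.0134% of all tested genes with limma. The changes were balanced, 36 positive and 40 negative, with a median of -0.01, equal to that of all tested genes. At an unadjusted p under 0.05, 6 members were lower (7.89%, against 4.51% of all tested genes), all core proteins of the large subunit, and 0 were higher (against 4.59%). Rpl6 gave -0.41 (SE 0.11, adjusted p = 0.270, limma) and Rpl14 -0.37 (SE 0.12, adjusted p = 0.327). Rplp2, the acidic stalk protein P2, gave -0.67 (SE 0.31, adjusted p = 0.523). Rpl23a, near the exit of the peptide tunnel, gave -0.35 (SE 0.12). The lowest change after Rplp2 was that of Rps21 (-0.50), and the highest were those of Rpl35al1 (1.26), Rps24 (0.59) and Rpl36a (0.45).

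The LPS against aged change differed between the regions for 3 members, Rpl14, Rpl6 and Rplp2, each higher in CA1 than in DG. Taken within each rat as CA1 minus DG, this difference was 0.88 (SE 0.27, adjusted p = 0.0466) for Rpl14, 1.04 (SE 0.33, adjusted p = 0.0496) for Rpl6 and 1.33 (SE 0.35, adjusted p = 0.0376) for Rplp2, from limma over 14637 genes tested in both regions. The share of members called, 3.95%, lay below the 8.98% of all genes called in this comparison. Rplp2 ran from 28.9 to 52.0 in LPS rats and from 17.5 to 34.5 in aged vehicle rats of CA1, and from 7.45 to 34.8 in LPS rats and from 22.6 to 42.9 in aged vehicle rats of DG. Its low DG values were those of LPS rats 2543 and 2547, both under 10. Rplp2 averaged 22.96 in LPS rats and 27.67 in young vehicle rats of DG. Rplp0, also a core stalk protein, averaged 6278 and 7642 in the same groups. Why Rplp2 was so low was not tested, and its row may not give the gene's level. The median difference over the members was 0.495, with 55 positive and 21 negative. With 1 rat left out at a time no member was called in 7 of 22 fits. Without aged rat 2532 the differences were 0.62 for Rpl14, 0.83 for Rpl6 and 1.22 for Rplp2, none past the threshold.

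For the LPS change itself and for age, no member differed between the regions past the threshold (limma), where 0.00683% and 0.0% of all genes did.

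**Figure D5:**
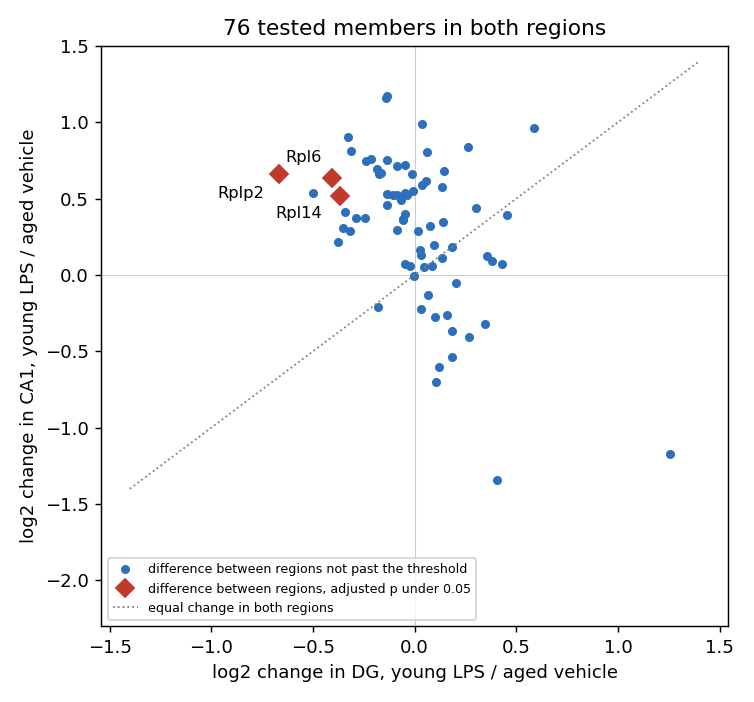
Log2 change of young LPS against aged vehicle in CA1 (y axis) and in DG (x axis) for the 76 tested ribosomal protein genes. Red diamonds are the 3 members whose change differed between the regions at an adjusted p under 0.05, Rpl6, Rpl14 and Rplp2, which lie above 0 in CA1 and below 0 in DG. The dotted line marks an equal change in both regions.

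Several members have roles beyond the ribosome's structure. Rps6, the small-subunit protein phosphorylated downstream of mTORC1, ran from 836.1 to 2106 in LPS rats, from 188.1 to 1635 in aged vehicle rats and from 583.3 to 1753 in young vehicle rats of CA1. Its groups overlapped, and its log2 changes in DG were 0.02 under LPS and -0.12 with age. Rpl5 and Rpl11, which with 5S RNA bind and inhibit Mdm2, had log2 changes of -0.28 and -0.07 under LPS and of -0.22 and -0.24 with age in CA1, none past the threshold. Rpsa, a small-subunit protein also described as a laminin receptor, had -0.27 under LPS in DG (SE 0.13, adjusted p = 0.663, limma) and 0.19 in CA1. Rps27a, which is made as a fusion with ubiquitin, stayed within 0.15 log2 units of its comparison group in all 6 comparisons. Rpl3 and Rpl10, at the peptide-bond-forming centre, had -0.17 and -0.21 under LPS in DG and -0.38 and 0.10 with age in CA1. The short protein Rpl41 had -0.51 with age in CA1 (SE 0.21, adjusted p = 0.393, limma), and Rps4x had -0.25 under LPS in CA1 (SE 0.13, adjusted p = 0.654).

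The genes most like Rpl6 across libraries were not ribosomal protein genes. Over the 22 CA1 libraries the 5 genes with the highest Spearman correlation with Rpl6 were Stoml2 (0.94), Ubxn11 and Ssr2 (0.922 each), Arfip2 and Ap2m1 (0.915 each), and over the 22 DG libraries they were Fto (0.912), Ifi27l2b (0.898), Stub1 (0.832), AABR07002870.2 (0.806) and Atg101 (0.804). The median correlation of the other members with Rpl6 was 0.415 in CA1 and 0.153 in DG. These are descriptions without a test over libraries that share groups.

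The wider translation machinery was described by lists of other genes. Of the ribosomal proteins under other symbols, Fau and Rack1 had the same signs as the median of the set in CA1 with age and in LPS against aged. With age Fau had a log2 change of -0.55 and Rack1 of -0.24, and in LPS against aged Fau had 0.69 (adjusted p = 0.0617, limma) and Rack1 0.33 (adjusted p = 0.136), with no call in any of the comparisons. In CA1, where LPS against aged called 8.73% of all tested genes, it called 0 of 10 elongation factors higher and 1 lower (Eif5a2, -0.80), 0 of 32 initiation factors higher and 7 lower (lowest Eif3j, -0.92, adjusted p = 0.049, limma), and 2 of 47 ribosome biogenesis factors higher and 1 lower. It called 1 of 18 other TOP mRNAs (Fau counted here too) lower (Nap1l1, a nucleosome assembly protein, -1.01), 1 of 22 mTORC1 and TOP regulators higher and 1 lower (Rps6ka3, -0.75), and 1 of 12 ribosome quality control genes higher and 3 lower, with Ltn1, a ubiquitin ligase for stalled peptides, lowest at -0.69. The medians of these lists lay between -0.08 and 0.18. The summed initiation factors in CA1 of aged rat 2532 were 87470, where the other aged libraries reached at most 61100. Without that library none of these genes was called, nor was any other tested gene (limma), although at an unadjusted p under 0.05, 12% of all tested genes were higher and 12.7% lower. Eif3j then had a log2 change of -0.65 (adjusted p = 0.119, limma). In the other 5 comparisons no gene of these lists was called by limma.

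Markers were set against the region labels. Summed markers of CA1 pyramidal neurons had values of 23870 to 58100 in CA1 libraries, where DG libraries had 1246 to 16150. Those of dentate granule neurons had 1433 to 8433 in CA1 libraries and 7771 to 14300 in DG libraries, so that these ranges overlapped, on separately normalised scales. In DG the pyramidal sum averaged 6169 in LPS rats, 9983 in aged vehicle rats and 6154 in young vehicle rats. In CA1 all 8 tested granule markers had a negative log2 change with age, with a median of -0.386 (lowest C1ql2 at -1.03, adjusted p = 0.430, limma). They were also negative in 8 of 8 under LPS, with a median of -0.485, whereas the 7 tested pyramidal markers were all positive under LPS, with a median of 0.282. None of these markers passed the threshold. The part of dissection in the member values was examined only as a covariate. Each CA1 library held 12292357 to 18749666 recovered reads, and each DG library 12130182 to 23519791.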

How the data were processed

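Per the file contents and labels, the authors deposited 1 table of normalised read counts per region, a signal that is never negative. The submitters' processing notes name STAR, Partek, DESeq2 and the rn6 build, without versions or roles. Which annotation and filters were used, and whether strand was, is not stated there. Within a library, the deposited values step by the worth of 1 read. Division by that step gave whole reads, within a tolerance of 0.1, for 99.7% of CA1 values and 100.0% of DG values, and for all rows of the set. Recovered totals set the depth, and counting error covers sampling of reads only.

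Genes at a value of 10 or more in at least 6 libraries were tested with limma 3.58.1 (R 4.3.3, trend and robust) on log2(value + 1), all 3 groups of a region fitted together, with Benjamini-Hochberg adjustment over all tested genes and a threshold of 0.05. This scale understates changes of low genes. Both regions of a rat came from 1 hippocampus, so region differences were fitted within rats (replicate block). The deviations of a rat's 2 libraries correlated above 0.1 in 8 of 22 rats, with a median of 0.0513. The fit of LPS against young vehicle in each region was tested on simulated data. In CA1 it recovered 29% of the genes changed by 0.5 log2 units and 81% of those changed by 1.0, with 3 false calls. In DG it recovered 51% and 88%, with 5 false calls. Member changes of about 0.5 or less could therefore go uncalled.

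The members and lists were chosen with earlier results of these data known. The text names members past the threshold, the 3 highest and 3 lowest per comparison, and a fixed list of known members; members named for an unadjusted p or as paralogs were chosen after their values were seen. Alternatives included edgeR 4.0.16 and DESeq2 1.42.0 on recovered reads. Gene copies and starts came from RefSeq. Some genes in the counts are not reported here by name.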

Additional observations from a re-analysis of the deposited data

Results flagged for a closer look

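Outlying libraries were looked for within each group among 114 group values, for 18 genes and the summed share, and 17 were found where 1 in 20 would give 5.7 on average. The 18 genes were taken from those with values printed here, some of them named after their values were seen, and many members vary together. The average of 5.7 is therefore no measure of an excess. Of these, 11 lay on the high side, 7 belonged to the CA1 library of aged rat 2532 and 4 to the DG library of young vehicle rat 2526. In CA1 of rat 2532 the share of the set was 0.538%, against 0.801% in the next library, and low values were Rpl14 at 459.4, Rps16 at 742.4, Rps27 at 328.2, Rpl35 at 586.3 and Rps6 at 188.1, while Rpl22l1 was high at 781.8. In DG of rat 2526, high values were Rpl6 at 3203, Rps10 at 3558, Rps4y2 at 59.0 and Rps6 at 2921. Without rat 2526, Rpl6 in DG still fell under LPS, by 0.61 on the log2 scale (adjusted p = 0.00808, limma).

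The other outlying libraries were spread over rats. In CA1 they were young LPS rat 2547 for Rpl35al1 (54.2), aged rat 2412 for Rpl35al1 (62.2), and young vehicle rats 2410 for Rpl22l1 (611.9), 2523 for Rps27 (5120) and 2572 for Rpl10l (52.0). In DG young vehicle rat 2571 stood out for Rpl35al1 (16.3).

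The change of young LPS against aged vehicle differed between the regions, CA1 minus DG, for Rpl14 (0.88, adjusted p = 0.0466), Rpl6 (1.04, adjusted p = 0.0496) and Rplp2 (1.33, adjusted p = 0.0376) in limma.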

How the results depend on the processing

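Rpl6 fell under LPS in DG in all 38 alternatives, by 0.54 to 0.90 on the log2 scale, and was called in 37 of them. The exception was the fit to rats with numbers beginning with 25 alone (-0.90, 0 members called). With 1 library left out at a time the change was -0.73 to -0.61. No alternative called a member in CA1 under LPS or with age, or in DG with age or for LPS against aged. The 3 calls of LPS against aged in CA1 were the least stable, and the cause was not tested. They became 0 with no filter on low values, 0 scaled to the total of the other rows, 0 with only the 2 groups compared, 9 at a mean of at least 50, 20 with library weights, 12 with number series as a covariate, 12 with choroid plexus and meningeal covariates, 9 with a dissection score, 7 with edgeR and 15 with DESeq2. They became 0 without rats 2526, 2572 and 2532, and 0 without 2523, 2572 and 2532, a set chosen after seeing the data. Leaving out 1 library at a time gave 0 to 22 calls, 0 in 15 of 22 fits. For the region difference of LPS against aged, 3 calls under the replicate block became 8 with no replicate block, 10 with number series as a covariate under the block, and 0 to 12 with 1 rat left out. Rpl6 there was 1.04 at a pseudocount of 0.25, adjusted p = 0.0502, and 0.83 to 1.14 with 1 rat left out. The block changed no other count of calls. The counts of Rplp2, Rpl10l and Rpl35al1 were low, so that their values rest on few reads. Why Rplp2, a core member, was low was not tested.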
